A study of Mus musculus with 6 samples.

Results

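The 10 genes described here encode the kinases, the phosphatase subunits and core subunits of the mouse pyruvate dehydrogenase (PDH) complex. They were chosen by name: the kinases Pdk1, Pdk2, Pdk3 and Pdk4, the phosphatase genes Pdp1, Pdp2 and Pdpr, and the complex genes Pdha1, Pdhb and Pdhx. They are 10 of the 35968 genes with a transcript in the deposited files, and the files list 43 transcripts for them. RNA was sequenced from MS-5, a mouse bone marrow stromal cell line, in 3 libraries of cells cultured alone (MS-5 only; MO1, MO2 and MO3) and 3 libraries of cells co-cultured for 24 hr with SKM-1, a human acute myeloid leukaemia (AML) line (MC1, MC2 and MC3). Both groups were grown in the same serum-supplemented medium, and the labels name no transgene or drug in either. Co-cultures held 4 AML cells for each stromal cell, plated at a density of 750000 AML cells per ml, and leukaemic cells were removed by washing and mild trypsin treatment before RNA was extracted. MS-5 is a single established line, and the labels do not say whether the libraries of a group came from separate cultures, so p-values measure only the spread between these libraries.

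The PDH complex sits in the mitochondrial matrix and converts pyruvate, the end product of glycolysis, into acetyl-CoA for the citric acid cycle. PDH kinases phosphorylate the alpha subunit of its first enzyme and switch the complex off, and PDH phosphatases remove the phosphate and switch it on again. The balance of kinases and phosphatases therefore sets how much pyruvate enters the citric acid cycle and how much is left for lactate and other products. Transcript levels do not show phosphorylation, protein amounts or enzyme activity, which were not analysed here.

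Total estimated counts, which Kallisto assigns to mouse transcripts, ran from 23978881 to 27182453 in MS-5 only and from 26258451 to 35694987 in co-culture. MO2 and MC3 stood apart from the other libraries, with 6.03% and 5.89% of counts on mitochondrial transcripts against 10.5% to 13.1% elsewhere, and no label names a batch. The study's methods name a HiSeq instrument in one passage and NovaSeq in another, without saying which libraries were run on which. All 10 stromal marker genes of the list used here, collagens and Pdgfrb among them, were detected in every library, with Thy1 lowest at 0.399 to 4.25 CPM (TMM-normalized counts scaled to library size). The 12 leukocyte marker genes summed to between 20.9 and 38.4 CPM in MS-5 only, and to 60.0, 243 and 55.6 CPM in MC1, MC2 and MC3. Most of the MS-5 only sum was Lyz2 (16.8, 21.7 and 30.4 CPM in MO1, MO2 and MO3), which was not higher in co-culture. Of the 8 that were tested, 6 were higher in all of MC1, MC2 and MC3 than in MS-5 only (11.6% of all genes). These 6 had at most 1.24 CPM in any MS-5 only library. They passed the filter on low counts through co-culture, which largely fixed their direction. Among them, Spi1 had at most 0.477 CPM in MS-5 only and 8.33, 56.4 and 10.3 CPM in MC1, MC2 and MC3. None of the 12 was at 0 in every library. The groups were compared with edgeR's quasi-likelihood test over the 13221 genes that passed a filter on low counts, with an adjusted p-value under 0.1 as the threshold. Because MO2 and MC3 stood apart, the edgeR results of the members are also given with a covariate that separates these libraries from the other 4. The covariate was defined from these same libraries and rests on no label, so adjusted p-values under it can be too small.

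Of the 9 members that were tested, Pdk1 differed most between the groups and was the only member that passed the threshold without the covariate. Of the 13221 genes, 3.71% were called higher and 0.666% were called lower in co-culture, against 1 higher and 0 lower among the 9 members by edgeR. Unadjusted edgeR p-values were under 0.05 in 4 of the 9, Pdk1, Pdk2, Pdhb and Pdhx (14.3% of all genes), and DESeq2's Wald test called 3, Pdk1, Pdk2 and Pdhx (9.59% of all genes). In 2 of the 9 all of MC1, MC2 and MC3 were higher than all of MO1, MO2 and MO3 (11.6% of all genes), and in 2 all were lower (9.6%). With the covariate 3 members were called higher (13.9% of all genes) and 3 lower (16.4%). The median log2 fold change was 0.05 over the 9 members and -0.02 over all genes tested.

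Pdk1 encodes a PDH kinase whose gene is a known target of hypoxia-inducible factor 1 (HIF-1). The gene lies on the plus strand at chr2:71873224-71903858 of GRCm38. Its level in CPM was 27.5 in MO1, 27.2 in MO2 and 32.1 in MO3, and 148 in MC1, 116 in MC2 and 133 in MC3. Even the lowest co-culture library was well above the highest MS-5 only library, with MC3 between MC1 and MC2 and MO2 close to MO1. Pdk1 rose from 28.9 ± 2.76 to 132 ± 16.0 CPM (SD, n = 3 in each), a log2 fold change of 2.19 (SE 0.15, edgeR's quasi-likelihood test, adjusted p = 0.0269), or 4.57-fold, with 3.70-fold and 5.65-fold at 2 SE on either side. The log2 difference was 2.15 for MC1 and MC2 over MO1 and MO3, and 2.29 for MC3 over MO2. With the covariate the edgeR adjusted p was 0.00729, and without MO2 and MC3 it was 0.0770 at a log2 fold change of 2.17. Leaving out any 1 MS-5 only library kept the log2 fold change at 2.15 to 2.27 but raised the edgeR adjusted p to 0.300 without MO1, 0.136 without MO2 and 0.224 without MO3. In bulk RNA a different level per cell and a different make-up of the harvested cells cannot be told apart. Pdk1 was lowest, among the co-culture libraries, in MC2, where the leukocyte markers were highest: the excess of MC2 over the MS-5 only mean was 0.780 times the mean excess of MC1 and MC3 for Pdk1, and 4.00 to 7.31 times for the 6 tested leukocyte markers that were higher in every co-culture library. The other 2 tested markers, Lyz2 and Cd53, were not higher in co-culture (log2 fold changes -0.37 and -0.11). Among the markers not tested, Cd33, Cd34 and Lyz1 overlapped between the groups, and Itgam was higher in every co-culture library. The part of other cells in the level of Pdk1 was not tested.

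Pdk2, the most widely expressed PDH kinase gene, lies on the minus strand at chr11:95026258-95041354. It had 15.8, 16.6 and 20.8 CPM in MO1, MO2 and MO3 and 30.9, 30.0 and 22.1 CPM in MC1, MC2 and MC3. The groups did not overlap, but MC3 lay close to MO3. The mean was 17.7 ± 2.74 CPM in MS-5 only and 27.7 ± 4.88 CPM in co-culture (SD, n = 3), with a log2 fold change of 0.64 (SE 0.19), 1.56-fold, that did not pass the threshold (edgeR's quasi-likelihood test, adjusted p = 0.179). It did pass with the covariate (log2 fold change 0.63, edgeR adjusted p = 0.0259) and without MO2 and MC3 (0.76, edgeR adjusted p = 0.0810). The log2 difference was 0.74 for MC1 and MC2 over MO1 and MO3, and 0.41 for MC3 over MO2.

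Pdk4, the kinase gene known to be induced by fasting and fatty acids, lies on the minus strand at chr6:5483351-5496309. Its values were 13.8, 20.1 and 15.7 CPM in MO1, MO2 and MO3 and 17.1, 20.1 and 27.2 CPM in MC1, MC2 and MC3. The groups overlapped, since MO2 was higher than MC1, and within each group the library that stood apart (MO2 or MC3) was the highest. The log2 fold change of 0.38 (SE 0.23) did not pass the threshold (edgeR's quasi-likelihood test, adjusted p = 0.558). With the covariate it was 0.37 at an edgeR adjusted p of 0.0558, and without MO2 and MC3 it was 0.35 at 0.218. With 1 library left out it ranged from 0.17 without MC3 to 0.54 without MO2.

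Pdk3, on the minus strand at chrX:93764607-93832201, was close to the limit of detection. The MS-5 only libraries had 0 estimated counts each; MC1 had 3, MC2 had 14 and MC3 had 3, so that it was not tested. The 20 co-culture counts against 0 allow only a rough bound. With a floor of 3 counts over the MS-5 only group, and the co-culture counts taken as exact, it was 5.74-fold. The counting error of the co-culture counts and the spread between libraries are left out of this bound. Without MC2, which held 14 of the 20 counts, the bound was 2.34-fold on 6 counts. All counts were assigned to Pdk3-202, a transcript of 607 bases with no annotated coding sequence that holds 3 exons, while the protein-coding Pdk3-201 was at 0 in all 6 libraries. MC2 held most of these counts and also had the highest leukocyte marker sum; the part of other cells in these counts was not tested.

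**Figure D1:**
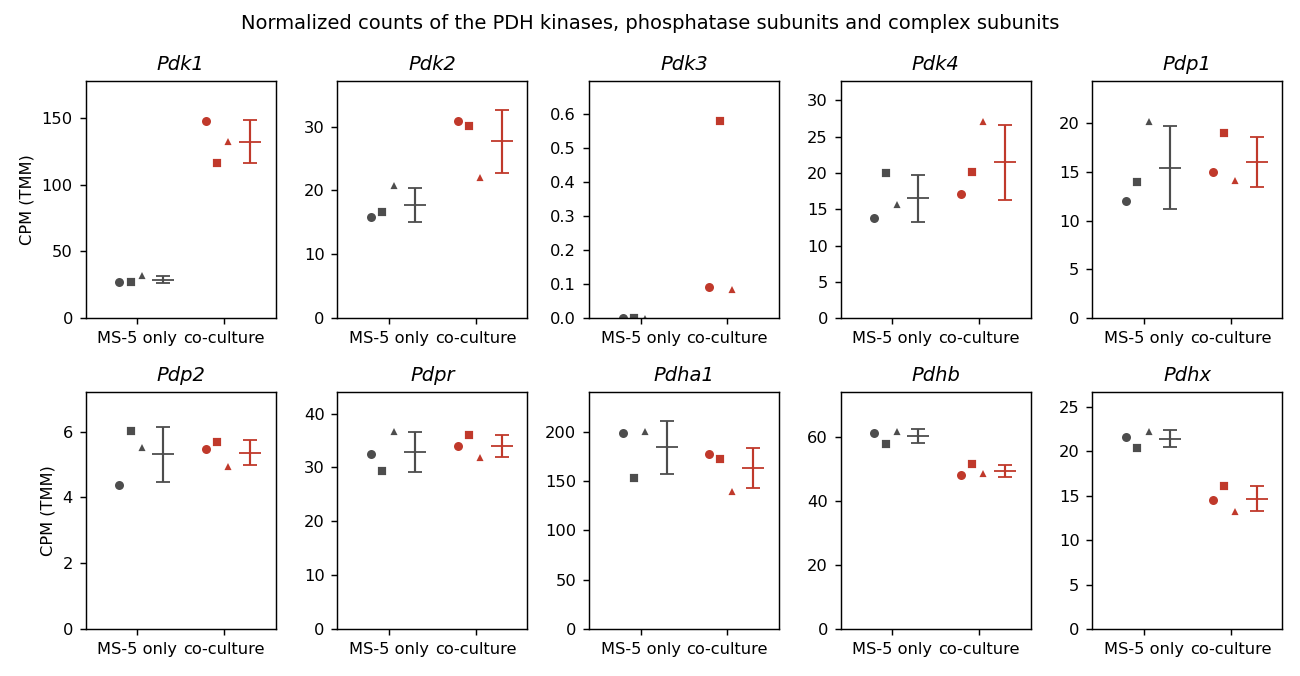
Normalized counts (CPM, linear axes from 0) of the 10 genes in each library, grey for MS-5 only and red for co-culture; circles, squares and triangles are replicates 1, 2 and 3, and the line with a bar is the mean ± SD (n = 3), left out for Pdk3. Pdk1 stands at 27.2 to 32.1 CPM in MS-5 only and at 116 to 148 CPM in co-culture, and Pdhb and Pdhx are lower in every co-culture library.

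The phosphatase genes showed no difference past the threshold in any fit run here. Pdp1, the calcium-stimulated catalytic subunit, had 12.1, 14 and 20.3 CPM in MO1, MO2 and MO3 and 15.0, 18.9 and 14.2 CPM in MC1, MC2 and MC3. Pdp2, the other catalytic subunit, had the lowest level of the phosphatase genes, with 4.39, 6.02 and 5.53 CPM in MS-5 only and 5.46, 5.69 and 4.95 CPM in co-culture. Pdpr, the regulatory subunit, had 32.6, 29.3 and 36.7 CPM in MS-5 only and 34.1, 36.1 and 32.0 CPM in co-culture. For all of them the groups overlapped. The log2 fold changes were 0.05 (SE 0.24) for Pdp1, 0.01 (SE 0.21) for Pdp2 and 0.05 (SE 0.14) for Pdpr, and the edgeR adjusted p-values were 0.978, 0.993 and 0.952. At 2 SE on either side, the fold ran from 0.747 to 1.44 for Pdp1, from 0.755 to 1.35 for Pdp2 and from 0.856 to 1.26 for Pdpr, so smaller differences were not resolved. With DESeq2's Wald test and with limma, 0 of the phosphatase genes passed, and none had an unadjusted edgeR p under 0.05. Pdp1 lies at chr4:11958184-11966452, Pdp2 at chr8:104591451-104599026 and Pdpr at chr8:111094630-111137074.

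The genes of the complex itself had negative log2 fold changes, and none passed the threshold in edgeR's fit of all 6 libraries without the covariate. Pdhx encodes the subunit that binds dihydrolipoamide dehydrogenase to the core of the complex, and lies at chr2:103021075-103073513 on the minus strand. It had 21.6, 20.4 and 22.3 CPM in MO1, MO2 and MO3 and 14.5, 16.1 and 13.3 CPM in MC1, MC2 and MC3. Every co-culture library was below every MS-5 only library, with narrow spreads of 21.4 ± 0.960 and 14.6 ± 1.40 CPM (SD, n = 3). The log2 fold change of -0.55 (SE 0.14) did not pass the threshold (edgeR's quasi-likelihood test, adjusted p = 0.119). It passed with the covariate (-0.55, edgeR adjusted p = 0.0159) and without MO2 and MC3 (-0.50, edgeR adjusted p = 0.0906).

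Pdhb encodes the beta subunit of the first enzyme and lies at chr14:8165996-8173025 on the minus strand. It had 61.5, 57.9 and 61.9 CPM in MS-5 only and 48.1, 51.7 and 48.7 CPM in co-culture. As for Pdhx, the groups did not overlap. The log2 fold change was -0.29 (SE 0.11, edgeR's quasi-likelihood test, adjusted p = 0.311). The edgeR adjusted p was 0.0306 under the covariate and 0.143 without MO2 and MC3. Pdha1 encodes the alpha subunit that the kinases phosphorylate, lies at chrX:160122209-160138413 on the minus strand, and had the highest CPM of the 10 genes in every library. It had 199, 153 and 201 CPM in MS-5 only and 178, 173 and 140 CPM in co-culture. The groups overlapped, with MO2 and MC3 the lowest of their groups. The log2 fold change was -0.17 (SE 0.17, edgeR's quasi-likelihood test, adjusted p = 0.777). The edgeR adjusted p was 0.0988 under the covariate and 0.293 without MO2 and MC3. With 1 library left out the log2 fold change ranged from -0.30 without MO2 to -0.07 without MC3. It was also closer to 0 without MO1 (-0.09) and MO3 (-0.11). The log2 differences of MC1 and MC2 from MO1 and MO3 were -0.52 for Pdhx, -0.31 for Pdhb and -0.19 for Pdha1. For MC3 over MO2 they were -0.61, -0.25 and -0.13, the same sign in both comparisons for each gene. The 3' end of Map3k15 overlaps Pdha1 on the opposite strand, and Map3k15 had at most 26.7 estimated counts in a library.

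**Figure D2:**
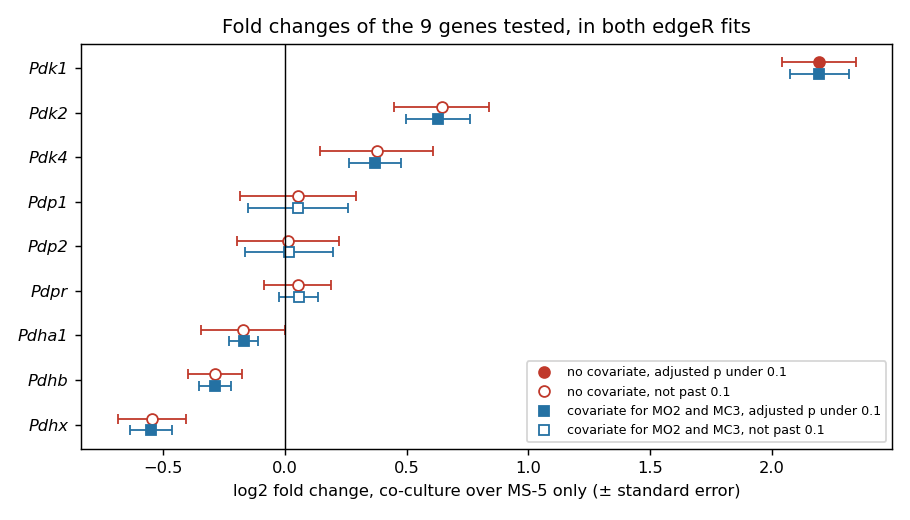
Log2 fold change of co-culture against MS-5 only for the 9 genes tested, from edgeR's quasi-likelihood fit with and without a covariate for MO2 and MC3; points are estimates and bars are ± 1 standard error, with filled symbols for an adjusted p under 0.1. Pdk1 stands at 2.19, apart from the other genes, which lie between -0.55 and 0.64, and the bars are narrower with the covariate.

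The deposited TPM values, which take transcript length into account, allow levels to be ranked between genes. In MS-5 only the order of mean TPM (± SD, n = 3) was Pdha1 (87.3 ± 11.9), Pdhb (58.0 ± 15.2), Pdk1 (15.7 ± 3.54), Pdhx (13.8 ± 4.08), Pdk2 (11.4 ± 2.28), Pdpr (10.1 ± 1.70), Pdp1 (8.72 ± 2.55), Pdk4 (6.75 ± 2.92) and Pdp2 (1.23 ± 0.505), with Pdk3 at 0. From Pdk1 down to Pdk4, neighbours in this order did not differ beyond their spread. In co-culture Pdk1 (71.8 ± 24.6 TPM) stood second, between Pdha1 (77.1 ± 13.1) and Pdhb (47.0 ± 12.7), overlapping with both across the libraries. Within each co-culture library it was above Pdhb, and in MC3 it was also above Pdha1 (99.6 against 92.0 TPM). Pdk2 (18.0 ± 2.86), Pdpr (10.3 ± 2.61), Pdp1 (9.15 ± 2.02), Pdhx (9.02 ± 2.00) and Pdk4 (8.81 ± 4.81) followed. Pdhx was above Pdk2 within each MS-5 only library and below it within each co-culture library. TPM values of MO2 and MC3 were the highest of their groups for most of these genes, which was not so for CPM: Pdk2 in MC3 had the highest TPM (20.8) and the lowest CPM (22.1) of the co-culture libraries. Ratios within a library, given next, do not depend on that scaling.

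Pdk1 made up a larger share of the kinase transcripts in co-culture. Of the summed TPM of the 4 kinase genes, Pdk1 held 49.7%, 45.3% and 45.0% in MO1, MO2 and MO3 and 72.2%, 69.9% and 73.7% in MC1, MC2 and MC3. Pdk2 held 34.0%, 31.7% and 36.2% in MS-5 only against 20.8%, 19.97% and 15.4% in co-culture. Pdk4 held 16.3%, 23.0% and 18.8% in MS-5 only against 6.72%, 8.22% and 10.6% in co-culture. Pdk3 held 0.272%, 1.89% and 0.258% in co-culture. The groups therefore did not overlap for the shares of any of these kinases. The share of Pdk1 was 46.7% ± 2.65 in MS-5 only and 71.9% ± 1.90 in co-culture (SD, n = 3), 25.2 percentage points apart (two-sided exact permutation test, p = 0.1, the smallest p that 3 libraries against 3 can give). With MO2 and MC3 left out the difference was 23.7 points. In TPM, Pdk2 and Pdk4 were not lower in co-culture: their smaller shares stand beside a summed kinase TPM of 27.4, 43.7 and 30.5 in MS-5 only against 87.1, 75.7 and 135 in co-culture.

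**Figure D3:**
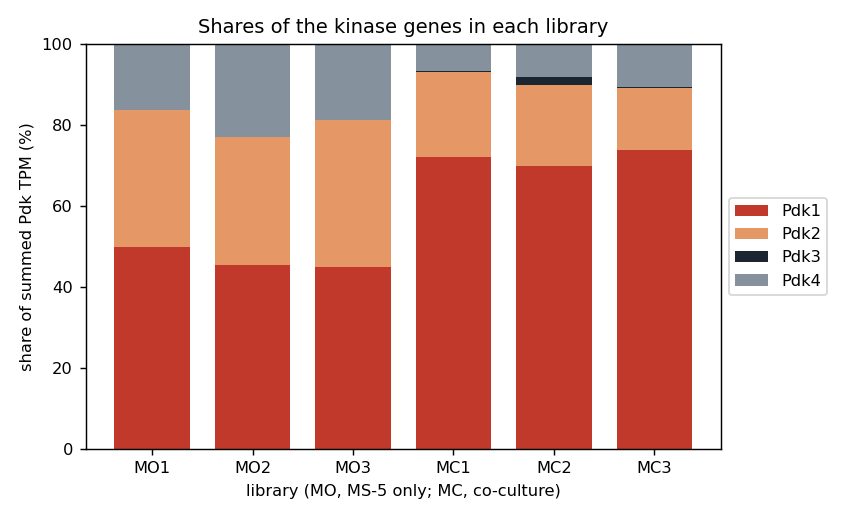
Share of each kinase gene in the summed TPM of Pdk1, Pdk2, Pdk3 and Pdk4, as stacked bars from 0 to 100%, 1 bar for each of the 6 libraries. Pdk1 takes 45.0% to 49.7% in MS-5 only and 69.9% to 73.7% in co-culture, and Pdk3 is at most 1.89%.

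Set against the complex, kinase transcripts were more abundant in co-culture in every library. The summed kinase TPM divided by the summed TPM of Pdha1, Pdhb and Pdhx was 0.192, 0.224 and 0.218 in MO1, MO2 and MO3 and 0.729, 0.659 and 0.820 in MC1, MC2 and MC3. Its log2 value was -2.24 ± 0.12 in MS-5 only and -0.45 ± 0.16 in co-culture (SD, n = 3), a difference of 1.80 (two-sided exact permutation test, p = 0.1, the smallest possible). Without Pdk1 among the kinases the difference was 0.87, and the groups still did not overlap. Counting protein-coding transcripts alone it was 1.2, since most Pdk1 TPM lies in other transcripts. The sum of the kinases divided by that of the phosphatase catalytic subunits Pdp1 and Pdp2 was 4.11, 3.52 and 2.84 in MS-5 only against 10.5, 7.58 and 10.6 in co-culture, a log2 difference of 1.45 (exact permutation p = 0.1). That difference was 0.53 without Pdk1 and 0.87 with protein-coding transcripts alone. Over these ratios and the Pdk1 share, 3 measures in all, the Benjamini-Hochberg adjusted p of the exact permutation test was 0.1 for each.

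The ratios of single pairs of genes were chosen after the values had been seen and are given without a test. The ratio of Pdk1 to Pdk2 TPM was 1.46, 1.43 and 1.24 in MS-5 only against 3.47, 3.50 and 4.78 in co-culture. That of Pdk1 to Pdk4 was 3.06, 1.97 and 2.39 in MS-5 only against 10.7, 8.50 and 6.93 in co-culture. Neither pair overlapped between the groups (log2 differences 1.49 and 1.82), whereas Pdk2 to Pdk4 did (0.33). Within the complex, the ratio of Pdhx to Pdha1 was 0.136, 0.183 and 0.149 in MS-5 only against 0.116, 0.111 and 0.123 in co-culture. This ratio was lower in every co-culture library (log2 difference -0.41), whereas Pdhb to Pdha1 overlapped (-0.12).

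**Figure D4:**
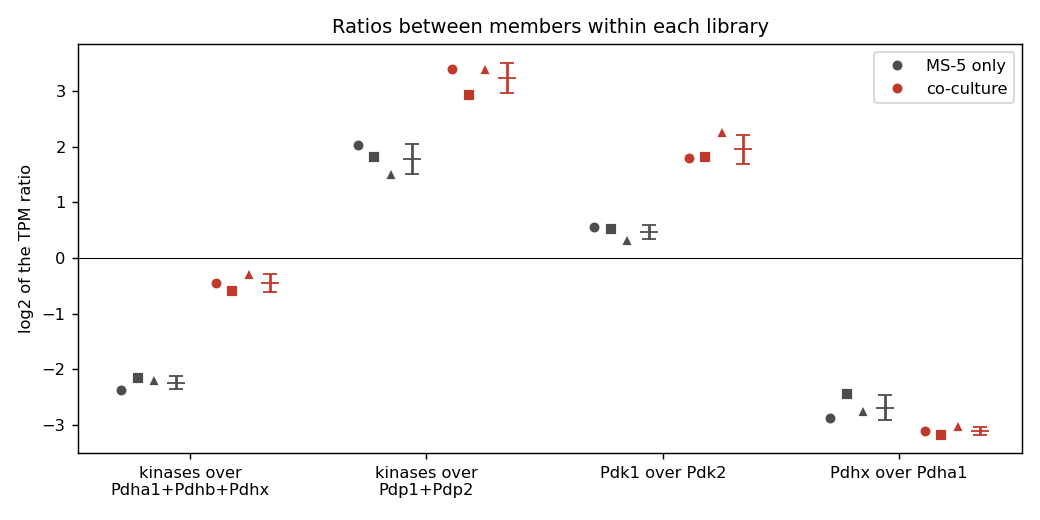
Log2 of TPM ratios within each library, grey for MS-5 only and red for co-culture; circles, squares and triangles are replicates 1, 2 and 3, and the line with a bar is the mean ± SD (n = 3). The ratio of kinases to complex subunits goes from -2.24 to -0.45 on the log2 scale. The groups do not overlap in the 4 ratios drawn, of which the single gene pairs were chosen after the values had been seen. Of the pairs not drawn, Pdk2 to Pdk4 and Pdhb to Pdha1 overlap and Pdk1 to Pdk4 does not.

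Most Pdk1 signal was not assigned to the transcript that encodes the kinase. Of the 8 Pdk1 transcripts, Pdk1-201 (5185 bases, 11 exons) is the only protein-coding one, and transcripts with no annotated coding sequence held 78.0% to 83.1% of Pdk1 TPM in every library. By estimated counts, which do not weight short transcripts, they held 56.5% to 62.6%. Pdk1-208 (2972 bases, 9 exons) held the largest share of TPM. It skips the second and the seventh exon of Pdk1-201 and ends 1872 bases before it. Neither skipped exon has a length that is a multiple of 3, so that the reading frame of Pdk1-201 is lost at the first of these junctions, although their summed length is a multiple of 3. The sequences across these junctions, which tell the transcripts apart, are shown 5′ to 3′ from GRCm38 with the exons of GENCODE M21, with the skipped exon in capitals and 15 bases of the neighbouring exons on either side in lower case. Exon 2 is chr2:71875406-71875547 (142 bases, plus strand) and exon 7 is chr2:71887382-71887458 (77 bases, plus strand).
Pdk1-201 exon 2: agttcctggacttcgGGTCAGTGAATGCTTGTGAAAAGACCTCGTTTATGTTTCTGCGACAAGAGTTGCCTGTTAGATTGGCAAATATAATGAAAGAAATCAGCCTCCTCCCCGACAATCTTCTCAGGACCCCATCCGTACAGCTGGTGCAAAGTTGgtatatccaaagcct
Pdk1-208 without exon 2: agttcctggacttcggtatatccaaagcct
Pdk1-201 exon 7: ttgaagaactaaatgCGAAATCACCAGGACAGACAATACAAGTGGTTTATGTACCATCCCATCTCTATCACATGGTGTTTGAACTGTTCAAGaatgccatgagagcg
Pdk1-208 without exon 7: ttgaagaactaaatgaatgccatgagagcg

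The 3 Pdk1 transcripts with the highest mean TPM over all libraries were each higher in every co-culture library. Pdk1-201 had 2.38, 3.35 and 2.55 TPM in MO1, MO2 and MO3 and 13.8, 10.02 and 17.3 TPM in MC1, MC2 and MC3. Pdk1-208 had 5.22, 8.70 and 6.25 TPM in MS-5 only and 27.5, 19.7 and 39.3 TPM in co-culture. Pdk1-206, a transcript of 777 bases that begins at its own first exon (chr2:71873743-71873818) and runs on through exons 2 to 7 into exon 8, where it ends, had 2.24, 3.78 and 3.90 TPM in MS-5 only and 15.4, 17.5 and 26.7 TPM in co-culture. The means in co-culture were 4.97 times, 4.29 times and 6.0 times those in MS-5 only. No co-culture library overlapped with MS-5 only for any of these 3 transcripts. Pdk1-202, which in MO1 (2.48 TPM) was above Pdk1-201 and Pdk1-206, overlapped between the groups. The share of Pdk1-208 in Pdk1 TPM was 42.6% ± 3.81 in MS-5 only and 40.1% ± 3.25 in co-culture (SD, n = 3, two-sided exact permutation test, p = 0.4). By estimated counts in place of TPM it was 3.96 percentage points lower in co-culture (exact permutation p = 0.1). With the protein-coding transcript alone in the edgeR fit, the log2 fold change of Pdk1 was 2.30 (edgeR's quasi-likelihood test, adjusted p = 0.0273). Kallisto divides reads among transcripts that share exons, and the files hold no measure of that uncertainty, so the error of each division is not known.

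**Figure D5:**
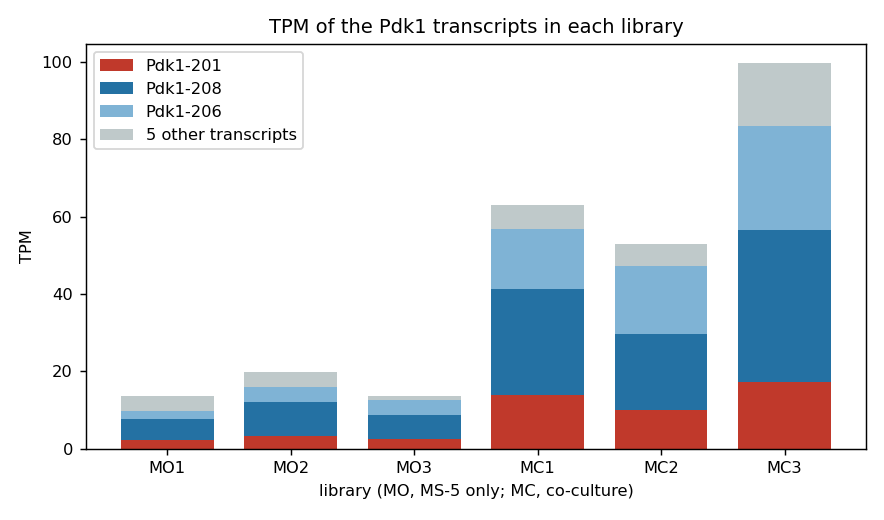
TPM of the Pdk1 transcripts as stacked bars, 1 bar for each of the 6 libraries, with Pdk1-201, Pdk1-208 and Pdk1-206 in their own colours and the other 5 transcripts summed. Pdk1-208, which has no annotated coding sequence, is at 5.22 to 8.70 TPM in MS-5 only and 19.7 to 39.3 TPM in co-culture, above the protein-coding Pdk1-201 at 2.38 to 3.35 and 10.02 to 17.3 TPM.

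For the other genes, apart from Pdk3, the main transcript was protein coding. The largest share of gene TPM lay in Pdk2-201 (83.4% to 98.2%), Pdk4-201 (84.0% to 100%), Pdpr-201 (77.9% to 87.8%), Pdha1-201 (92.8% to 99.9%), Pdhb-201 (88.8% to 99.3%) and Pdhx-201 (71.8% to 93.0%). Pdhb-201 held less in MO2 (88.8%) and MC3 (92.6%) than in the other 4 libraries (98.5% to 99.3%), and in MO2 and MC3 most of the rest lay in retained-intron transcripts. Pdp1 was spread over 6 protein-coding transcripts, with Pdp1-201 at 33.1% to 53.4%, and Pdp2 has a single transcript. The share of the main transcript passed no test in the 8 genes where it was compared (exact permutation p = 0.3 or higher, adjusted p = 1 over the 8).

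The promoter of Pdk1 is shown because Pdk1 is the member that rose, and that of Pdk2 because it was the other tested kinase gene whose groups did not overlap. Both are the 250 bases before the gene start in RefSeq (GRCm38.p6), printed 5′ to 3′ on the gene's strand. They were searched on both strands for ACGTG and GCGTG, the core letters of the HIF binding motif, and for CACGTG, the E-box palindrome that contains ACGTG on each strand. Capitals mark the matches.
Pdk1, chr2:71872974-71873223, plus strand: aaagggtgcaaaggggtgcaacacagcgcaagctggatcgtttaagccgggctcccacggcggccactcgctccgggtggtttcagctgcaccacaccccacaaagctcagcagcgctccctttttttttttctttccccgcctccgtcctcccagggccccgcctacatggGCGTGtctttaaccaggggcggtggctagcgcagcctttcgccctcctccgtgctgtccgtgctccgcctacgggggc
Pdk2, chr11:95041372-95041621, minus strand: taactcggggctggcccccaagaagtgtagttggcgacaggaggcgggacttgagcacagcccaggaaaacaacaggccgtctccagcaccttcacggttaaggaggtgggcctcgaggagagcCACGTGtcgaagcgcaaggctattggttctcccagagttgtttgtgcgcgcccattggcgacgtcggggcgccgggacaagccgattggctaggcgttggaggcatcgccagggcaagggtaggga
The Pdk1 window held GCGTG once and no ACGTG, and the Pdk2 window held a single CACGTG. Pdk1 and Pdk2 each have a further RefSeq start, whose windows held neither ACGTG nor GCGTG. Each of the 9 members with an entry held ACGTG or GCGTG in a window, those that did not rise included: 6 held GCGTG (Pdha1, Pdhb, Pdhx, Pdk1, Pdk3 and Pdk4), 5 held ACGTG (Pdhb, Pdk2, Pdk3, Pdp2 and Pdpr) and 3 of these held CACGTG (Pdk2, Pdp2 and Pdpr). Of the 32851 promoter windows of this length in the table, 28.2% held GCGTG, 16.6% held ACGTG, 38.6% held either and 6.02% held CACGTG. Matches of these letters are a description of the windows and not evidence of binding, which was not measured here.

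Other genes of pyruvate entry into mitochondria were taken from a list of 5, the other PDH subunits and the mitochondrial pyruvate carrier. None of the 4 that were tested passed the threshold in edgeR's test, and their median log2 fold change was -0.26; 0 had an unadjusted edgeR p under 0.05, and DESeq2 and limma also called 0. Dlat, the acetyltransferase core of the complex, had a log2 fold change of -0.07, and Dld, the dehydrogenase subunit, one of -0.21 (edgeR adjusted p = 0.942 and 0.599). The carrier genes Mpc1 and Mpc2 had -0.38 and -0.31 (edgeR adjusted p = 0.686 and 0.777). With the covariate 3 of the 4, Dld, Mpc1 and Mpc2, were called lower (16.4% of all genes). Pdha2, the testis form of the alpha subunit, was at 0 counts in all libraries.

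The related branched-chain and 2-oxoglutarate dehydrogenase complexes, with the kinase and phosphatase of the former, gave 0 calls among 9 genes tested by edgeR. There were 2 at an unadjusted edgeR p under 0.05 (14.3% of all genes), 2 called by DESeq2 (9.59% of all genes) and 0 called by limma. The median log2 fold change was -0.06. Bckdk, the kinase that inactivates the branched-chain complex and is a relative of the PDH kinases, had a log2 fold change of -0.06 (SE 0.30, edgeR adjusted p = 0.980), beside the 2.19 of Pdk1. Bckdha, the alpha subunit that Bckdk phosphorylates, was higher in all of MC1, MC2 and MC3 than in MO1, MO2 and MO3 (0.56, edgeR adjusted p = 0.162), and Dbt, the acyltransferase core, was lower in all of them (-0.52, edgeR adjusted p = 0.183). With the covariate 3 of the 9 were called higher (13.9% of all genes) and 2 lower (16.4%). Genes that supply the cofactors lipoate and thiamine gave 0 calls among 9 tested by edgeR, 0 with DESeq2 or limma and 0 at an unadjusted edgeR p under 0.05. Their median log2 fold change was -0.30, with 4 called lower under the covariate (16.4% of all genes).

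Among 11 genes for factors known to act on PDK genes, 9 were tested and 1 was called higher in co-culture (3.71% of all genes). It was Foxo3, a forkhead factor that can raise Pdk4. Foxo3 had 54.4, 60.0 and 66.6 CPM in MS-5 only and 96.2, 93.4 and 82.3 CPM in co-culture, with all of the latter higher (log2 fold change 0.59, SE 0.14, edgeR's quasi-likelihood test, adjusted p = 0.0951). This call was lost without any 1 of the 6 libraries. Hif1a, the alpha subunit of HIF-1, had a log2 fold change of 0.19 (edgeR adjusted p = 0.551). In 4 of the 9, Foxo3, Hif1a, Ppard and Esrra, every co-culture library was higher than every MS-5 only library (11.6% of all genes). The factor genes had a median of 0.34, and with the covariate 4 were called higher (13.9% of all genes).

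Other known HIF-1 targets were also called higher. Of 10 such genes that did not include Pdk1, 9 were tested, with a median log2 fold change of 1.10. Of these, 6 were called higher (3.71% of all genes) and 0 were called lower (0.666%). The 6 were Bnip3, a mitophagy receptor (2.68, edgeR adjusted p = 0.0269), Ankrd37 (2.14), the glucose transporter gene Slc2a1 (1.42), the collagen prolyl hydroxylase gene P4ha1 (1.33), Ndrg1 (1.08) and Adm (0.82), the last 5 with edgeR adjusted p-values of 0.0734 to 0.0874. Ldha, which makes lactate from pyruvate, had a log2 fold change of 1.09 and did not pass (edgeR adjusted p = 0.273). Vegfa did not pass either (1.10, edgeR adjusted p = 0.209), although both were higher in every co-culture library. Car9, an HIF-1 target in many cells, was under 1 CPM in all libraries. Pdk1 and Bnip3 were called at a smaller adjusted p than the rest of the list. Without any 1 of MO1, MO2 and MO3, 0 of the 9 passed, and with the covariate 8 did (13.9% of all genes were called higher). DESeq2's Wald test called 8 (9.59% of all genes). With limma on log2(TPM + 0.5) 5 were called, beside 356 of the 13221 genes. The list was chosen with earlier results of these data known.

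The 5 genes whose log2 CPM over the 6 libraries, centred on the MS-5 only mean, lay nearest to that of Pdk1 were Nos2, Ankrd37, Prtn3, Lrtm2 and Pgbd5, at Euclidean distances of 0.58, 0.64, 0.69, 0.70 and 0.77. Their log2 fold changes were 2.09, 2.14, 2.27, 1.89 and 2.25. Ankrd37, Prtn3 and Pgbd5 were under 3 CPM in every library, so that counting error bears on their place in this order. Prtn3 is known as a gene of myeloid cells, and its excess in MC2 was 0.696 times the mean of MC1 and MC3.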

How the data were processed

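The authors quantified paired-end mRNA reads with Kallisto (0.43.0) against a mouse (GRCm38, mm10) transcript index and deposited, per transcript, an estimated count, a TPM value and lengths in bases, without normalization of counts between libraries, pooling or filtering. FastQC (0.11.7) and Sleuth (0.30.0) are also named in the submitters' processing notes. The files hold none of the authors' comparisons. Human reads could be counted only where they resembled mouse transcripts. The strand setting of Kallisto is not given in the sources used here. Of 118489 transcripts, 116728 matched GENCODE M21 in identifier, version and length and were summed per gene, and 1761 were left out.

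Estimated counts were rounded and tested with edgeR 4.0.16 (R 4.3.3): filterByExpr, TMM (factors from 0.923 to 1.17), quasi-likelihood F-test, Benjamini-Hochberg adjustment over 13221 genes, threshold 0.1. Standard errors are the log2 fold change over the square root of F. Ratios and shares of the deposited TPM were compared by exact permutation (scipy 1.17.1). The genes and lists were chosen with earlier results of these data known: the named genes are the 10 members, the genes of the lists, and the 5 genes nearest to Pdk1. Alternatives were DESeq2 1.42.0 size factors or Wald test, library size, limma 3.58.1 on log2(TPM + 0.5), (+ 0.1) and (+ 1), an effective length offset, a filter of 5 counts in 3 libraries, no filter, a replicate block, a covariate for MO2 and MC3, thresholds of 0.05 and 0.01, and leaving out each library. For the kinase share and the kinase ratios, counting only protein-coding transcripts and leaving out MO2 and MC3 together were planned; for the edgeR results both were added after seeing the data, as were the ratios of single gene pairs with all their alternatives and the bound for Pdk3 without MC2. Sleuth was not used here. The bound for Pdk3 covers the counting error of the MS-5 only counts alone and takes the co-culture counts as exact.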

Additional observations from a re-analysis of the deposited data

How the results depend on the processing

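The log2 fold change of Pdk1 kept its direction in all fits run. With each library left out in turn it ranged from 2.09 to 2.27, and it missed the threshold of 0.1 without any 1 MS-5 only library, where 0 of all genes passed edgeR's test (1478, 2819 and 1578 genes had an unadjusted p under 0.05 without MO1, MO2 and MO3). The number of members called, 1, was 3 with DESeq2's Wald test (Pdk1, Pdk2 and Pdhx), 6 with the covariate for MO2 and MC3, 3 without MO2 and MC3 and 0 at a threshold of 0.01, and ranged from 0 to 1 with each library left out. The number of genes called, 579 (84.8% higher), was 2 at a threshold of 0.05 and 0 at 0.01, with 1885 genes at an unadjusted p under 0.05. It was 1268 with DESeq2, 356 and 224 with limma on log2(TPM + 0.5) and log2(TPM + 1), 3999 with the covariate (45.9% higher), 1702 without MO2 and MC3, and from 0 to 549 with each library left out. The cause of these differences was not tested.

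The labels do not say whether replicate numbers pair the libraries. Deviations from the group means correlated at 0.53, -0.29 and -0.52 for same-numbered libraries and at 0.73 for MO2 with MC3. These values cannot settle the pairing, because MO2 and MC3 stood apart from the other libraries. With the replicate block 444 genes were called, Pdk1 among them (edgeR adjusted p = 0.0131) and no other member, and the HIF-1 targets called went from 6 to 3. The HIF-1 targets numbered 1 at a threshold of 0.05, 0 at 0.01, and from 0 to 4 with each library left out. The factor list, with 1 call, had 4 with the covariate and 0 with library size, each limma fit, the effective length offset, a filter of 5 counts, no filter, the replicate block, the thresholds of 0.05 and 0.01, and each library left out. The lists with 0 calls had, with the covariate, 3 (other subunits and carrier), 5 (related complexes) and 4 (cofactors), and without MO2 and MC3, 1, 2 and 3. DESeq2 called 2 in the related complexes.

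Signs turned for the phosphatase genes and for 6 transcript shares, none of which passed a test. With each library left out, the log2 fold change ranged from -0.087 to 0.30 for Pdp1, -0.083 to 0.11 for Pdp2 (-0.0082 with library size) and -0.029 to 0.14 for Pdpr. Differences in transcript share, in percentage points, ranged from -6.49 to 0.878 for Pdk2-201, -3.45 to 4.56 for Pdk4-201, -1.0 to 3.94 for Pdpr-201 (-0.644 by counts), -0.489 to 2.70 for Pdha1-201, -2.51 to 2.95 for Pdhb-201 (-0.0021 by counts) and -1.92 to 7.01 for Pdhx-201. The kinase to complex ratio (1.72 to 1.87), the kinase to phosphatase ratio (1.31 to 1.61) and the Pdk1 share (24.4 to 26.8 points) kept their direction with each library left out. With 3 libraries a group, exact tests of single values cannot pass a threshold below 0.1.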
